A study of Arabidopsis thaliana with 60 samples.

Results

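Stems of the HCT-RNAi line of Arabidopsis thaliana were compared directly with stems labelled gpt2-1, by counts of RNA sequencing reads per gene. The members were all genes with a mean of 2 CPM or more (CPM, counts scaled to an equal library size) over the 6 tables of counts and with no exon base under an exon of the opposite strand. There were 12038 such genes, out of 16713 that reached that level and 37967 named genes in each table. The comparison used 3 of the 15 samples of the series for each line, and each sample had 4 sequencing records that shared 1 table. HCT-RNAi is a line in which the lignin gene HCT is silenced by RNA interference, and gpt2-1 is the name of a mutant of the plastid translocator gene GPT2. The labels name no promoter for the silencing construct and no number of independent lines. The wild type Col-0 was grown in 2 sets of 3 samples, and its levels are given beside the results without a test. All plants had grown for 9 to 10 weeks in 0.5x Noren medium before stem RNA was extracted. The number of plants behind a sample is not labelled, although the samples are called biological replicates, so p-values measure the spread between these samples.

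HCT joins hydroxycinnamoyl groups to shikimate on the way from phenylalanine to the monolignols, the alcohols that polymerize into lignin in the walls of xylem vessels and fibres. GPT2 is an inner envelope protein of plastids that exchanges glucose 6-phosphate for phosphate, and is known for its induction by sugar and by a rise in light. Glucose 6-phosphate inside plastids can feed starch synthesis and the oxidative pentose phosphate pathway, which supplies reducing power and a precursor of the shikimate pathway to phenylalanine.

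Total counts were 23041771 to 26129812 in the HCT-RNAi libraries and 21352999 to 22618598 in the libraries labelled gpt2-1. Those of Col-0 set 2 were less even, from 5258309 to 31713084, against 16591700 to 24150608 in set 1. Genes under opposite-strand exons differed between these tables in a way that the wild type sets shared, which is why they were left out. Where 75 to 100% of the exon bases lay under an opposite-strand exon, 231 genes had a median log2 difference of 4.59 between HCT-RNAi and labelled gpt2-1, and all of them were higher in HCT-RNAi. The same genes had a median difference of 4.76 between Col-0 set 2 and Col-0 set 1. Without overlap these medians were 0.18 and 0.00 on the same scale, which is scaled by library size alone. After TMM scaling on the 12038 genes, the median was 0.02. In what follows, levels are TMM-scaled CPM, and a log2 difference is HCT-RNAi minus labelled gpt2-1.

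**Figure D1:**
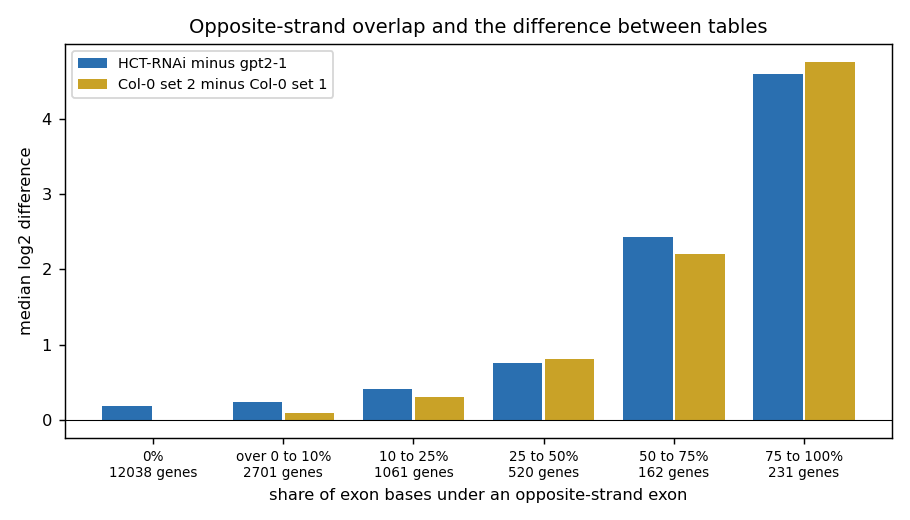
Median log2 difference in CPM between tables, by the share of a gene's exon bases under an exon of the opposite strand. Blue bars stand for HCT-RNAi minus labelled gpt2-1 and yellow bars for Col-0 set 2 minus Col-0 set 1, and both rise with the share, to 4.59 and 4.76 in the last group of genes.

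In the quasi-likelihood test of edgeR, with Benjamini-Hochberg adjustment, 8387 of the 12038 genes passed an adjusted p of 0.05, or 69.7%. Of these, 4226 genes (35.1% of those tested) were higher in HCT-RNAi and 4161 (34.6%) were lower. A fitted difference of at least 2-fold was seen in 1476 genes (12.3%), 574 of them higher (4.77%) and 902 lower (7.49%). Libraries of the 2 lines did not overlap for 8687 genes (72.2%). A count of passing genes in a list is therefore to be read against about 35% in each direction. The split by direction depended on the scaling, with 7354 genes higher and 2358 lower where TMM was not applied.

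For 918 of the passing genes the wild type sets themselves differed by more than 4-fold in the same direction, Col-0 set 2 minus set 1, and these are called set apart. They were unequal in direction, with 200 higher and 718 lower in HCT-RNAi, and held 429 of the 902 genes that were at least 2-fold lower. What sets the wild type sets apart was not tested. Among the 8330 genes whose wild type sets lay within 2-fold of each other, 309 were at least 2-fold higher and 266 at least 2-fold lower.

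**Figure D2:**
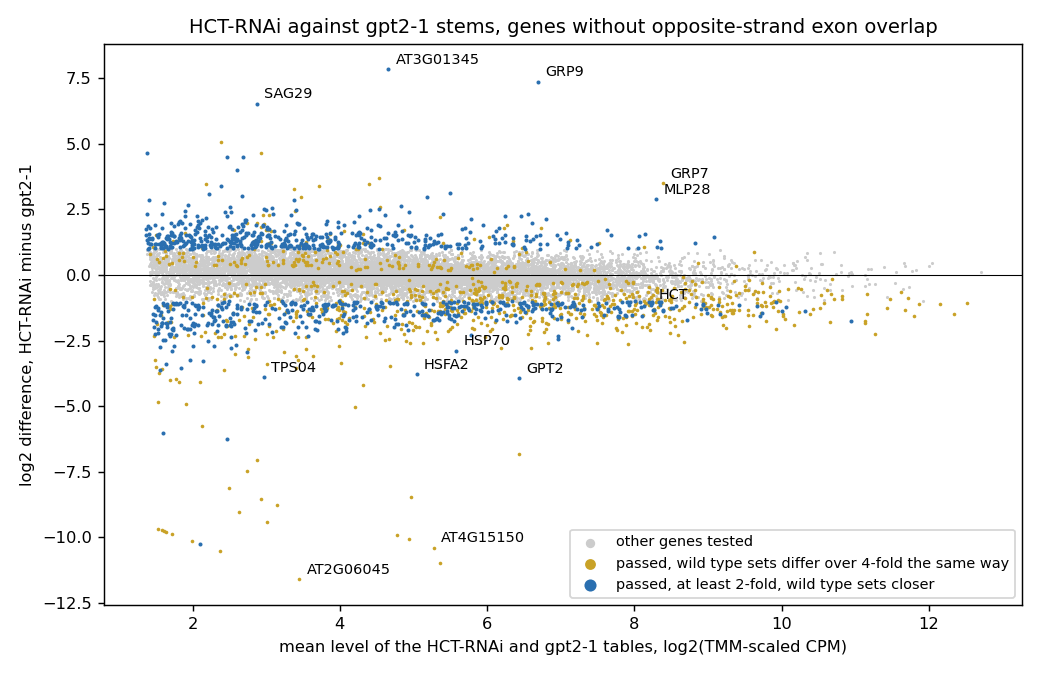
Log2 difference of each of the 12038 genes (HCT-RNAi minus labelled gpt2-1) against its mean level, log2 of TMM-scaled CPM. Blue points passed the test at 2-fold or more, yellow points passed but had wild type sets more than 4-fold apart in the same direction, and nearly all points under -7.5 are yellow.

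GPT2 (AT1G61800, chromosome 1, 22824414 to 22826902 on the plus strand of TAIR10.1, 5 exons) stood at 159, 159.5 and 168 CPM in the libraries labelled gpt2-1. The HCT-RNAi libraries had 7.83, 12.4 and 11.6 CPM, and Col-0 set 1 averaged 1.69 ± 0.193 CPM (SD, n = 3). Reads of GPT2 were highest in the libraries named for its mutant, and the groups did not overlap. The log2 difference was -3.94 (SE 0.08, edgeR adjusted p = 5.46e-23). Counts per gene do not show whether these reads come from an intact transcript. Since this goes against what the name of the line would give, every direction below holds for the libraries as labelled.

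HCT (AT5G48930, chromosome 5, 19836299 to 19838235 on the minus strand, 2 exons) stood at 199, 185 and 179 CPM in HCT-RNAi. Its level was 404, 430.1 and 399 CPM in labelled gpt2-1. All 3 silenced libraries lay below every labelled gpt2-1 library, with a log2 difference of -1.13 (SE 0.04, edgeR adjusted p = 5.56e-18). The wild type means were higher than those of either line, 463 ± 29.0 CPM for set 1 and 591 ± 53.9 CPM for set 2 (SD, n = 3).

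**Figure D3:**
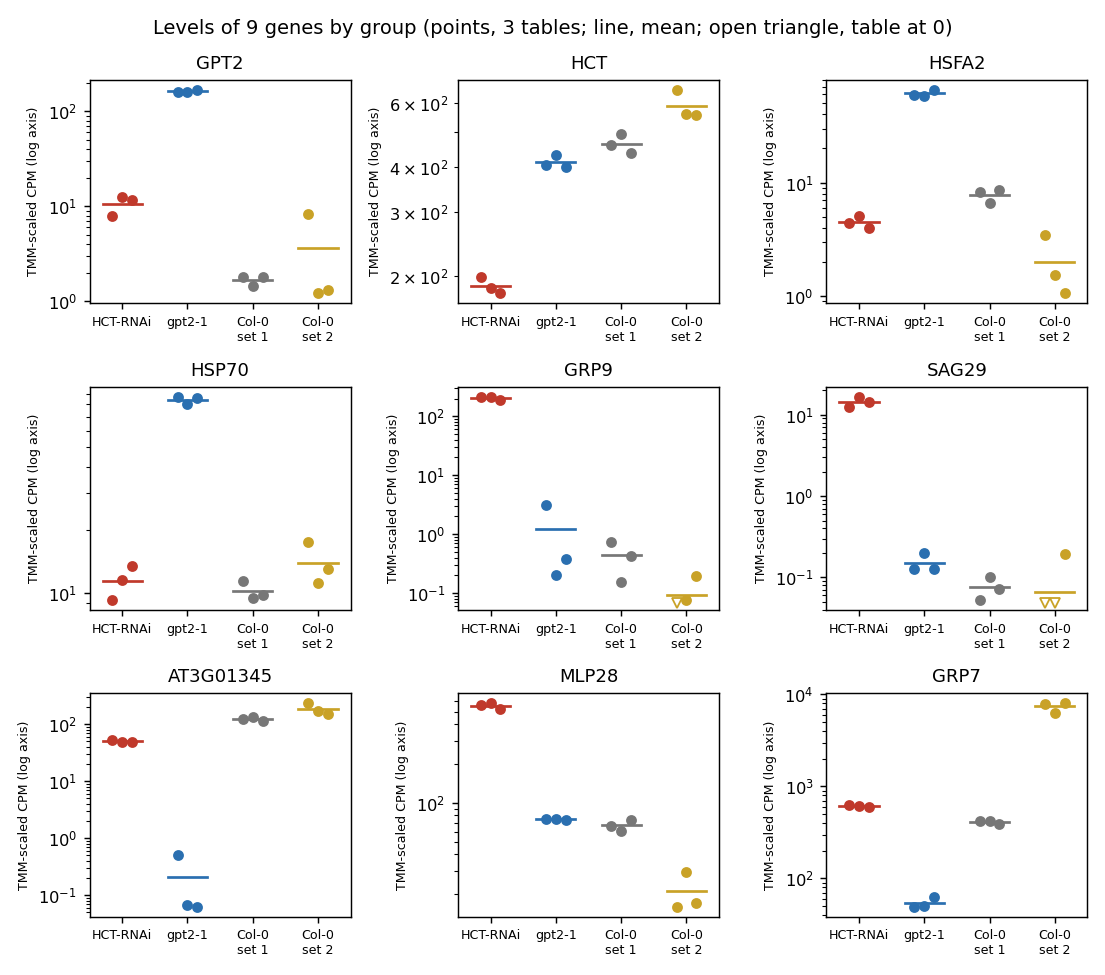
Levels of 9 genes in TMM-scaled CPM on a log axis, for HCT-RNAi, labelled gpt2-1 and both Col-0 sets. Points are the 3 tables of a group, lines are means and open triangles mark tables at 0. GPT2, HSFA2 and HSP70 are highest in labelled gpt2-1, HCT is lowest in HCT-RNAi, and GRP9, SAG29 and MLP28 are highest in HCT-RNAi.

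Monolignol genes were lower in HCT-RNAi. Of 20 genes on the list, 15 could be tested, and 13 of these were lower and 2 higher, with a median log2 difference of -0.47 against 0.02 over all genes tested. HCT, the silenced gene, belongs to this pathway itself, so its own fall is not an independent part of such a count. With no TMM scaling 9 were lower and 4 higher, and the median was -0.21. The members with the largest differences were ATR2 and PAL2. ATR2, a reductase that passes electrons to the cytochrome P450 enzymes, stood at 715, 716 and 702 CPM in HCT-RNAi and 1799, 1898 and 1830 CPM in labelled gpt2-1 (log2 difference -1.37, SE 0.03). PAL2, a phenylalanine ammonia-lyase, stood at 506, 511 and 471 against 1168, 1150 and 1057 CPM (log2 difference -1.18, SE 0.04). For both genes the 3 HCT-RNAi libraries lay below every labelled gpt2-1 library, and Col-0 set 1 lay between the lines, at 867 and 783 CPM.

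PAL4, with a log2 difference of -0.99, and PAL1, with -0.79, were lower too. FAH1, the ferulate 5-hydroxylase that leads to sinapyl alcohol, fell by 0.79 on the log2 scale and C4H, the cinnamate hydroxylase, fell by 0.59. The coenzyme A ligase 4CL2 fell by 0.41, CCoAOMT1 and COMT1, the methyltransferases, fell by 0.10 and 0.15, and CAD4 and CAD5, the alcohol dehydrogenases, by 0.24 and 0.31. Those against the direction were PAL3 (log2 difference 0.46) and CCOAOMT7 (0.39). In the shikimate list, 6 of 11 tested genes were lower and 2 higher. ADT5 and ADT4, arogenate dehydratases of phenylalanine synthesis, had log2 differences of -0.89 and -0.86, while ADT3 had 0.88.

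Genes that polymerize monolignols were split by family. Laccases LAC12, LAC10, LAC5 and LAC2 were higher in HCT-RNAi, with LAC12 at 129, 114 and 116 CPM against 66.3, 65.6 and 73.8 CPM (log2 difference 0.80, SE 0.05). LAC4, a main laccase of stem lignin, had a log2 difference of -0.08 and an edgeR adjusted p of 0.0606. The peroxidases PER4, PRX25 and PRX71 were lower, by 1.98, 1.12 and 0.82 on the log2 scale, and all 3 were set apart. PER4 had no reads in any library of Col-0 set 2, while set 1 stood at 14.9 ± 0.959 CPM.

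Polysaccharide genes of the secondary wall were higher in HCT-RNAi than in labelled gpt2-1 in 10 of 12 tested cases and lower in 1, with a median log2 difference of 0.45. IRX9, a glycosyltransferase of xylan, stood at 180.2, 171 and 174 CPM in HCT-RNAi and at 90.8, 86.0 and 93.4 CPM in labelled gpt2-1, with no overlap (log2 difference 0.96, SE 0.04). GXMT1, which methylates the glucuronic acid of xylan, and TBL29, a xylan acetyltransferase, had log2 differences of 0.63, and IRX10 had 0.61. The exception, PARVUS, had -0.16 (0.10 with no TMM scaling), and CTL2, a chitinase-like protein, did not pass (-0.07). None of the 12 genes was set apart. Of 5 tested genes for cellulose of the primary wall, CESA9 (0.98) and CESA2 (0.39) were higher and CESA6 lower (-0.14, or 0.12 with no TMM scaling).

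Of 20 tested transcription factors of the secondary wall, 12 were higher and 4 lower. MYB4, a repressor of phenylpropanoid genes, stood at 29.2, 31.7 and 27.4 CPM in HCT-RNAi and 6.91, 7.49 and 7.21 CPM in labelled gpt2-1 (log2 difference 2.03, SE 0.09). MYB61 had a log2 difference of 2.02 (SE 0.14), MYB52 1.08 and MYB103 1.03. These 4 were the members at least 2-fold higher, and the Col-0 set 1 mean was nearer to HCT-RNAi for each, with 20.2 CPM of MYB4, 12.9 of MYB61 and 68.9 of MYB103. The upper switches of fibre walls differed less: NST1 had 0.21, and SND1 did not pass (-0.01). The master regulators MYB46 and MYB83 had 0.84 and 0.46, whereas MYB85, an activator of lignin genes, had -0.33.

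Genes of starch degradation were higher in HCT-RNAi. All 14 tested genes passed, 13 of them higher in HCT-RNAi and 9 by at least 2-fold, with a median log2 difference of 1.11. PHS2, the cytosolic glucan phosphorylase, stood at 431, 413 and 423 CPM against 141, 146 and 137 CPM (log2 difference 1.58, SE 0.04). DPE1, the plastid disproportionating enzyme, stood at 62.3, 61.8 and 61.6 against 20.3, 21.3 and 21.8 CPM (1.55, SE 0.06). Both genes lay between these values in Col-0 set 1, at 261 and 37.1 CPM. ISA3, a debranching enzyme, had a log2 difference of 1.54, PWD and GWD1, the kinases that phosphorylate glucan, had 1.49 and 1.03, and SEX4, the phosphatase that removes the phosphate, had 1.28.

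BAM1, a beta-amylase known for its induction by stress, was the exception, at 477, 463 and 439 CPM in HCT-RNAi and 1209, 1253 and 1280 CPM in labelled gpt2-1 (log2 difference -1.44, SE 0.04). In starch synthesis, 7 of 10 tested genes were higher and 1 lower, with a median of 0.46. PGM1, the plastid phosphoglucomutase, stood at 69.3, 69.1 and 66.8 CPM against 29.2, 30.1 and 30.0 CPM, with no overlap. ISA2, a debranching subunit, had 1.21, the starch synthase SS1 0.80 and APS1, the small subunit of ADP-glucose pyrophosphorylase, 0.54. GBSS1, which makes amylose, was lower, by 0.19 on the log2 scale, but stood at 0.070 with no TMM scaling. With wild type sets within 2-fold the list median was 0.28 over 7 genes.

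Of the other 5 tested translocators of the plastid envelope, 3 were higher and 1 lower. GPT1, the constitutive glucose 6-phosphate translocator, had a log2 difference of 0.39 (33.7 ± 0.495 against 25.7 ± 2.84 CPM, SD, n = 3). The maltose exporter MEX1 had 0.71 and the triose phosphate translocator TPT 0.08, while PPT2, a phosphoenolpyruvate translocator, had -0.59. Of 12 tested genes of the pentose phosphate pathway, 6 were higher and 3 lower. G6PD1 and G6PD5, a plastid and a cytosolic glucose 6-phosphate dehydrogenase, had log2 differences of 0.59 and 0.72, G6PD2 had -0.51, and the transketolase TKL1 had 0.50.

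Nuclear genes of the photosystems and of carbon fixation were slightly higher in HCT-RNAi. Of 22 photosystem and light-harvesting genes tested, 18 passed as higher and none as lower, with a median log2 difference of 0.24, and none reached 2-fold. Of 11 Calvin cycle genes, 9 were higher and none lower, with a median of 0.25. The wild type sets differed more for this list, by a median of 1.26 (set 2 minus set 1). With wild type sets within 2-fold 2 genes remained, 1 of them higher, with a median of 0.11. GAPB, a subunit of plastid glyceraldehyde-phosphate dehydrogenase, had 0.59 and SBPASE, sedoheptulose bisphosphatase, 0.51. Without TMM scaling the median over all genes moved to 0.28, so shifts of this size depend on the scaling. The photosystem median was then 0.50, with 22 of 22 genes higher, and the Calvin cycle median 0.51, with 11 of 11 higher. LHCB1 and RBCS genes are near-identical copies, and how the counting divided their reads is not given in the sources used here. ELIP1, an early light-induced protein, stood far above the rest at 36.7, 51.4 and 41.0 CPM against 2.89, 3.91 and 3.01 CPM (log2 difference 3.71, SE 0.13), but ELIP2 went the other way (-1.74). ELIP1 was set apart. PSBS, which dissipates excess light, had 0.72.

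Sugar-responsive genes were mixed. BT2, a BTB-domain scaffold protein repressed by sugar, stood at 145, 144 and 147 CPM in HCT-RNAi and 31.1, 29.5 and 31.1 CPM in labelled gpt2-1 (log2 difference 2.25, SE 0.05), and Col-0 set 1 was nearer to labelled gpt2-1 at 44.0 CPM. EXL2 was lower, by 1.21, and in all 7 of the 9 tested genes of sugar starvation were higher and 2 lower. Of 16 genes for sucrose and hexose transport and cleavage, 5 were higher and 9 lower. SUC3, a sucrose transporter, and cwINV1, a cell wall invertase, fell by 1.08 and 1.56 on the log2 scale. SUC2, the main loader of phloem, did not pass (0.03), and the sucrose synthases SUS1 and SUS3 had 0.73 and 1.21.

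Genes of dividing and expanding tissue were higher in HCT-RNAi. In the cambium list, 9 of 10 genes were higher and none lower, with a median log2 difference of 0.76. WOX4, a homeobox factor that keeps cambium cells dividing, stood at 32.6, 33.6 and 29.2 CPM against 6.65, 5.64 and 7.65 CPM (log2 difference 2.25, SE 0.10). Col-0 set 1 lay between the lines, at 15.4 ± 0.354 CPM. ANT, a regulator of cambial growth, had 1.43 and PXY, the receptor of the xylem-inhibiting peptide, had 0.94. Levels of the 10 genes summed to 677 to 739 CPM in HCT-RNAi and 467 to 499 CPM in labelled gpt2-1, with 607 to 633 CPM in Col-0 set 1. In bulk stem, more cambium cells and more RNA per cell cannot be told apart.

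The 5 mitotic genes that could be tested, out of 18 on the list, were all higher, with a median log2 difference of 1.31. CYCB1;2, a mitotic cyclin, stood at 6.10, 6.03 and 4.13 CPM against 2.01, 1.92 and 1.38 CPM. All 5 had low levels, the highest being CYCB2;4 at 8.77 ± 1.51 CPM (SD, n = 3). Of 10 expansins, which loosen growing walls, 9 were higher and none lower, with a median of 1.17. EXPA15 stood at 107, 107 and 109 CPM against 40.1, 40.2 and 40.1 CPM (log2 difference 1.42, SE 0.05). EXPA10 had 1.92 and EXPA11 2.54, and none of the expansins was set apart. Where the wild type sets lay within 2-fold, 4 of 5 were higher and the median was 0.61.

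Xyloglucan endotransglucosylases, which cut and rejoin wall xyloglucan, were split, with 7 of 13 tested genes higher and 5 lower, and at 10 CPM or more with 3 of 8 higher and 5 lower. TCH4 (XTH22), XTH18, XTH23 and XTH24 were lower, and the first 3 of these were set apart. XTH31 was higher, at 17.0, 19.9 and 22.2 CPM against 2.13, 2.59 and 2.70 CPM (log2 difference 2.99, SE 0.14), and was set apart too. Of 16 wax and cutin genes, 10 were higher and 3 lower, CER1 and MAH1 of alkane synthesis by 0.58 and 0.87. Of 14 auxin response and transport genes, 7 were higher and 4 lower, with IAA17, an auxin-degraded repressor, at a log2 difference of 1.32 and PIN3, an auxin exporter, at 0.72. IAA14, another such repressor, had -1.52, at 1.45 against 4.17 CPM.

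Markers of other tissues were tested as well. Of 7 genes for xylem vessels and their cell death, XCP2 alone passed (0.36), and the summed level was 326 to 346 CPM in HCT-RNAi and 255 to 312 CPM in labelled gpt2-1. Of 7 phloem genes 3 were higher and 2 lower, and of 6 epidermal genes 3 and 3. Flower and pollen genes summed to 22.7 to 24.2 CPM and 28.7 to 29.9 CPM, with AT5G45880, a pollen-type allergen protein by annotation, at 1.78 ± 0.416 and 6.65 ± 1.14 CPM. The sum does not speak for every member: with no CPM minimum 4 of 10 were higher and 2 lower, with a median of 0.40. Seed storage genes summed to 1.54 to 2.29 CPM in HCT-RNAi and 4.33 to 9.55 CPM in labelled gpt2-1, and 4 of the 8 without overlap were at 0 in HCT-RNAi, and none reached the level for a test. The part of such tissue in the results was not tested. Of the markers of roots, suberin and flavonoids too few genes remained for a count: SCR was higher (0.36), KCS20 lower (-0.37), FLS1 higher (0.56), and CHI did not pass (0.09).

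Jasmonate, a hormone made from plastid fatty acids on wounding, gave lists that were mostly lower in HCT-RNAi. Of 11 genes of its synthesis, 10 were lower in HCT-RNAi and 1 higher, with a median log2 difference of -1.57. Of the 11, 5 were set apart, and with wild type sets within 2-fold 3 remained, 2 lower and 1 higher, with a median of -0.59. LOX3, the lipoxygenase that starts the pathway, stood at 742, 734 and 713 CPM in HCT-RNAi and 2440, 2541 and 2537 CPM in labelled gpt2-1 (log2 difference -1.78, SE 0.03). OPR3, the peroxisomal reductase, stood at 395, 380 and 346 against 1516, 1566 and 1614 CPM (-2.07, SE 0.04). For both genes the mean of Col-0 set 1 was near that of HCT-RNAi, at 718 and 377 CPM, while set 2 was far lower, at 9.39 and 41.9 CPM. AOC1, AOC2 and AOC3, allene oxide cyclases that are close copies, fell by 1.91, 1.75 and 1.55 on the log2 scale, and the fourth copy AOC4 was the one higher (0.64). LOX3 and LOX4 share much sequence as well, so single values of these genes are uncertain.

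JAZ proteins bind and repress the MYC factors that carry the hormone's signal, and are themselves induced by it. All 9 tested genes of this group, 8 JAZ genes and MYC3, were lower, 8 of them by at least 2-fold, with a median of -1.32. JAZ7 stood at 71.5, 73.8 and 70.6 CPM in HCT-RNAi and 231, 219 and 219 CPM in labelled gpt2-1 (log2 difference -1.63, SE 0.04). JAZ8 stood at 52.0, 50.2 and 53.4 against 169, 157 and 163 CPM (-1.65, SE 0.04). Col-0 set 1 had 50.8 CPM of JAZ7 and 46.0 CPM of JAZ8, below the HCT-RNAi means. JAZ7 had no reads in any Col-0 set 2 library and JAZ8 averaged 0.0903 CPM there, and all 8 JAZ genes were set apart, and MYC3 (-0.53) was not.

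MYC factors are known to bind the G-box, CACGTG. In the 250 bases before the annotated start, on either strand, 4 of these 9 genes held CACGTG and 8 held the shorter ACGTG, which every G-box contains. Over all 12026 tested genes with a full window the shares were 7.35% and 23.4%. The windows that hold one are shown, those of JAZ2, JAZ3, JAZ7 and JAZ8 (log2 differences -1.21, -1.31, -1.63 and -1.65). The other 5 genes of the list hold none in this window and were lower too. Lists that went both ways held CACGTG as well, in 4 of 10 core clock and 4 of 12 rapid stress promoters. It was in 2 of 11 promoters of jasmonate synthesis and in 0 of 10 of the jasmonate and wound outputs, which were mostly lower. The sequences were read 5′ to 3′ on the strand of the gene from the RefSeq genome, build TAIR10.1, and capitals mark CACGTG. JAZ2 lies at chr1:28150457-28150556 (minus strand), JAZ3 at chr3:6119547-6119646 (plus), JAZ7 at chr2:14572930-14573029 (plus) and JAZ8 at chr1:10596252-10596351 (plus).
JAZ2: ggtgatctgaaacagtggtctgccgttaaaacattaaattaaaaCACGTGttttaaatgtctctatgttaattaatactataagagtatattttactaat
JAZ3: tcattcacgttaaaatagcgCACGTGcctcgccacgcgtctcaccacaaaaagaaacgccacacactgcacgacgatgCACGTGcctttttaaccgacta
JAZ7: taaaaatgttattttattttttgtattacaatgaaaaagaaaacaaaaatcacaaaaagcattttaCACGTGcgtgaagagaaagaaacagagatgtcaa
JAZ8: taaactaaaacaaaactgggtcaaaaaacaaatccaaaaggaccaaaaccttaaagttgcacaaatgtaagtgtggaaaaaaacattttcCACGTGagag
JAZ3 holds the motif at 2 places of its stretch and the other 3 genes at 1. A match is a description of these letters and not of binding.

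Genes that jasmonate or wounding is known to induce did not all follow. Of 10 tested, 7 were lower and 3 higher. Of the 10, 5 were set apart, and no member had wild type sets within 2-fold. CYP94B3, which inactivates the hormone by oxidation, stood at 131, 130 and 129 CPM in HCT-RNAi and 609, 641 and 674 CPM in labelled gpt2-1 (log2 difference -2.30, SE 0.04). The 3 that were higher were VSP1 and VSP2, vegetative storage proteins (1.54 and 0.52), and CORI3, a cystine lyase (2.07). VSP1 stood at 27.1, 26.7 and 29.3 CPM against 10.9, 8.02 and 9.72 CPM, and both were above Col-0 set 1, at 6.23 ± 0.442 CPM.

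**Figure D4:**
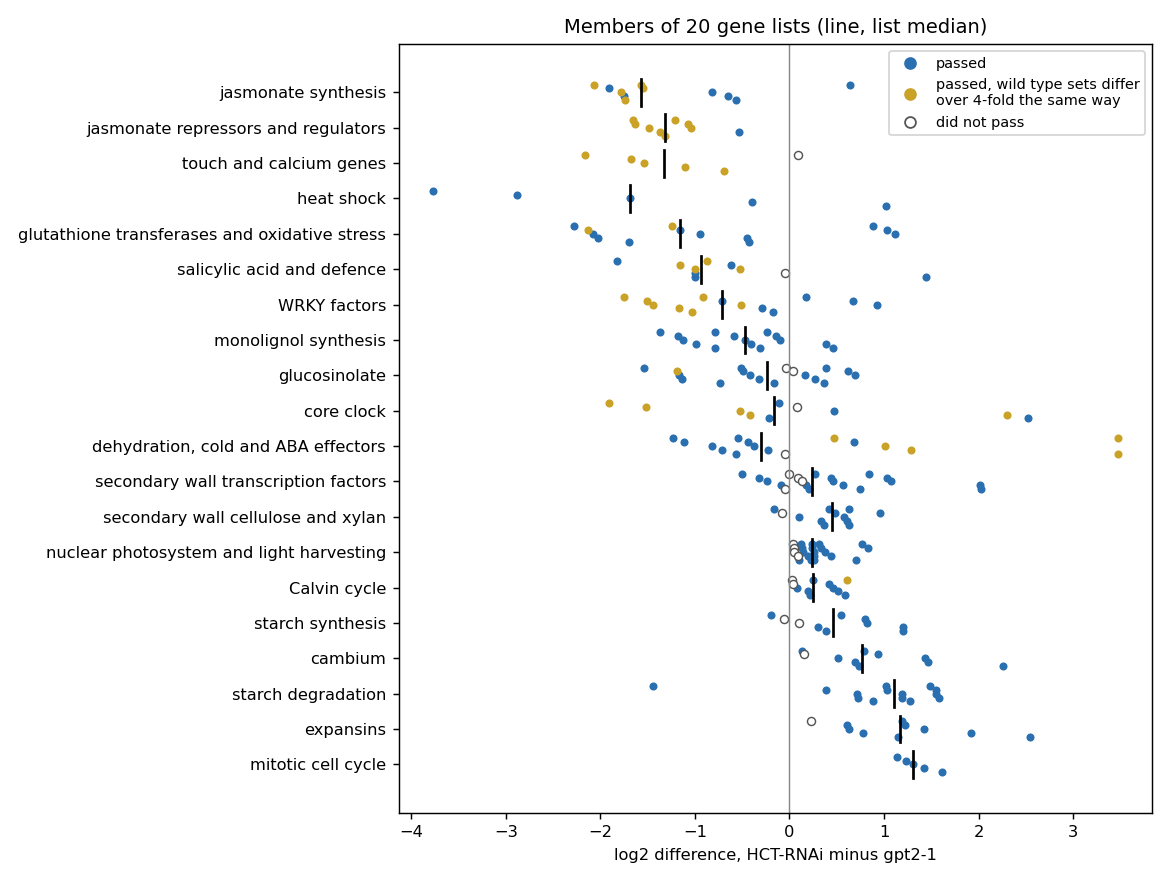
Log2 difference of each tested member of 20 gene lists, with the list median as a line. Jasmonate, touch and heat shock members lie mostly left of 0, starch degradation, expansin, cambium and mitotic members mostly right of it, and yellow points (set apart) are most common in the jasmonate, touch and WRKY lists.

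Touch and calcium genes were lower in 5 of 6 tested cases. CBL1, a calcium sensor, stood at 82.5, 84.4 and 84.0 CPM against 366, 373 and 383 CPM (log2 difference -2.16, SE 0.04), CML38 fell by 1.68 and TCH4 by 1.11. All 5 were set apart, and CML38 averaged 586 CPM for Col-0 set 1 but 2.79 CPM for set 2. WRKY factors, regulators of defence, were lower in 10 of 13 cases and higher in 3. WRKY18 had -1.75 and WRKY22 -1.51, while WRKY60 and WRKY54 had 0.92 and 0.67. Of the 10 lower, 7 were set apart, and the 1 member with wild type sets within 2-fold was higher.

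Of 10 genes for salicylic acid and defence, 8 were lower and 1 higher, CBP60G by 1.16, PAD4 by 1.00 and ICS1, the enzyme of salicylate synthesis, by 1.00 on the log2 scale. PR1, a late marker of that hormone, was the one higher, at 6.70 ± 2.37 against 2.47 ± 0.349 CPM (SD, n = 3), and PR5 did not pass (-0.04). Of the 9 that passed, 4 were set apart, and with wild type sets within 2-fold 2 remained, with a median of 0.68. Rapid stress factors were mixed, with 8 of 14 lower and 5 higher. All 8 that were lower had wild type sets more than 4-fold apart, and no member had sets within 2-fold. ERF11 had -1.44 and ZAT10 -0.99, against 0.56 for ERF5 and 0.80 for CBF1. For CBF1, CBF2, ERF5 and ERF104 the mean of Col-0 set 1 was above both lines. In ethylene synthesis and signalling, 9 of 12 genes were lower and 2 higher, among them ACS2 (-1.86), ACO4 (-1.14) and EIN3 (-0.78).

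Heat shock genes held some of the largest falls, and none of them was set apart. HSFA2, a factor that prolongs the heat response, stood at 4.42, 5.11 and 3.98 CPM in HCT-RNAi and 59.7, 58.7 and 65.8 CPM in labelled gpt2-1 (log2 difference -3.77, SE 0.09). HSP70 (AT3G12580), a cytosolic chaperone, stood at 9.28, 11.6 and 13.4 against 87.2, 80.1 and 85.9 CPM (-2.89, SE 0.08). Both wild type sets lay far below the labelled gpt2-1 libraries, with 7.80 and 2.01 CPM of HSFA2 and 10.2 and 13.9 CPM of HSP70 for sets 1 and 2. HSP90.1 fell by 1.69 and ROF2, a co-chaperone, by 0.40 on the log2 scale. The small heat shock protein HSP18.2 went the other way, at 16.8, 16.8 and 17.0 against 7.09, 8.35 and 9.47 CPM. Of the 5 members tested, 4 were thus lower and 1 higher. Hsp70-2, a close relative of HSP70 that is not on the list, fell by 2.42.

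Glutathione transferases and oxidative stress genes were lower in 10 of 13 cases and higher in 3. GSTU5 stood at 202, 191 and 199 CPM in HCT-RNAi and 599, 661 and 666 CPM in labelled gpt2-1 (log2 difference -1.70, SE 0.04), and the wild type means were 116 CPM (set 1) and 70.5 CPM (set 2). GSTF6 fell by 2.03, GSTU4 by 2.08 and UGT73B5, a glucosyltransferase of the stress response, by 2.28. AOX1A, the alternative oxidase of mitochondria, fell by 1.15. GSTU19, GSTU24 and UGT74E2 were higher, with log2 differences of 0.88, 1.03 and 1.12. Of the 10 lower, 2 were set apart.

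Clock genes went both ways. Of 10 core genes tested, 6 were lower and 3 higher. The morning factors LHY and CCA1 were lower, LHY at 27.8, 26.5 and 26.4 CPM in HCT-RNAi and 107, 101 and 94.9 CPM in labelled gpt2-1 (log2 difference -1.91, SE 0.05), CCA1 with -1.52. The pseudo-response regulators PRR5 and PRR3 were higher. PRR5 stood at 38.5, 39.7 and 40.5 against 6.40, 7.43 and 6.77 CPM (2.53, SE 0.08), and its wild type means were 53.5 (set 1) and 36.5 CPM (set 2). Those of LHY were 42.1 and 1.03 CPM. PRR9, TOC1 and PRR7 had -0.42, -0.22 and -0.12, and GI had 0.47. The labels give no hour of harvest, so harvest time and line cannot be told apart.

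Among clock outputs, GRP7, an RNA-binding protein with a daily cycle, ranged widely. It stood at 624, 620.0 and 599.8 CPM in HCT-RNAi and at 49.5, 50.5 and 62.1 CPM in labelled gpt2-1. The wild type sets lay between and above these, with means of 411 ± 17.0 CPM for set 1 and 7417 ± 935 CPM for set 2 (SD, n = 3). The log2 difference was 3.51 (SE 0.06), and that of its relative GRP8 was 1.21. RVE8 and RVE4, relatives of LHY, had -1.40 and -0.89, LNK4 -1.80, and CDF1 and CDF2, repressors of flowering, -1.39 and -1.56. In all, 7 of 15 tested outputs were lower and 3 higher.

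CCA1 and LHY are known to bind the evening element, AAAATATCT. On either strand of the 250 bases before the start it occurred in 2.56% of the 12026 promoters, in 4.88% of those of genes at least 2-fold higher and in 2.44% of those at least 2-fold lower. Outside the set apart genes the shares of higher and lower genes were 4.09% and 2.75%. In the clock lists it occurred in 2 of 10 core and 3 of 15 output promoters, not all of which are shown. PRR5, GRP7 (set apart) and GRP8, which were higher in HCT-RNAi, held it, and so did GPT2, which was lower. Their stretches are shown with the element in capitals, also where it reads on the other strand as AGATATTTT. PRR5 lies at chr5:8358657-8358756 (minus strand), GRP7 at chr2:9266558-9266657 (minus), GRP8 at chr4:18275217-18275316 (minus) and GPT2 at chr1:22824304-22824403 (plus).
PRR5: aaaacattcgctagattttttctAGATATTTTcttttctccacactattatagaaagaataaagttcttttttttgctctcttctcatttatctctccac
GRP7: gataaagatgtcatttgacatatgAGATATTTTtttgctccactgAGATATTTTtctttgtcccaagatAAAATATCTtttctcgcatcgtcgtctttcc
GRP8: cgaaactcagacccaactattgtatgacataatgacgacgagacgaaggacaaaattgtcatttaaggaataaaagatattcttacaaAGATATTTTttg
GPT2: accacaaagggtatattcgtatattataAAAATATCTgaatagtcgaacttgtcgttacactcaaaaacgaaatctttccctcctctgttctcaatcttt
GRP7 holds 3 copies and the other genes 1 in the stretch shown.

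Dehydration and cold genes went both ways, with 6 of 16 tested genes higher and 9 lower. COR15A, a plastid protein of freezing tolerance, stood at 37.1 to 40.5 CPM in HCT-RNAi and at 4.02, 3.05 and 3.26 CPM in labelled gpt2-1 (log2 difference 3.48, SE 0.10). RD29B had 3.47, COR413PM1 1.29, KIN2 1.01, LTI30, a dehydrin, 0.69, and RD29A 0.47. Of these 6, LTI30 alone was not set apart. The dehydrins ERD10, ERD14 and COR47 were lower, by 0.82, 0.54 and 0.44 on the log2 scale, as were LEA14 (1.11) and ERD5, the proline dehydrogenase (1.24). Of 16 genes for abscisic acid, 11 were lower and 5 higher. NCED3, the limiting enzyme of its synthesis, had -1.32 and PYL5, a receptor, -1.07, whereas HB7, a homeobox factor it induces, had 1.17.

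CBF factors bind CCGAC, the core of the dehydration-responsive element. This occurred in 7 of the 16 promoters of the dehydration and cold list and in 1 of the 16 of the abscisic acid list. Other lists held it as well, in 4 of 12 rapid stress, 5 of 16 wax and cutin and 4 of 14 auxin promoters. Its share was 12.8% over all 12026, 12.4% in those at least 2-fold higher and 12.1% in those at least 2-fold lower. COR15A and LTI30, both higher in HCT-RNAi, are shown, and the other promoters of the list that hold it are not. CCGAC or its other strand GTCGG is in capitals. The stretches lie at chr2:17712391-17712490 (minus strand) and chr3:18940533-18940642 (plus).
COR15A: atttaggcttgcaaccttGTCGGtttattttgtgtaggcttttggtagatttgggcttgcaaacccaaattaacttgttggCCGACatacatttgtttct
LTI30: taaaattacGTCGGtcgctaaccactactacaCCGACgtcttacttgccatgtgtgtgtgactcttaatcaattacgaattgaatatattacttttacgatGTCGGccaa
COR15A holds 2 copies and LTI30 3. The CBF genes themselves had small differences, 0.80 for CBF1 and 0.41 for CBF2, and are close copies of each other.

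Glucosinolates are defence thioglucosides made from tryptophan (indolic) or methionine (aliphatic). Of 18 genes tested, 10 were lower in HCT-RNAi and 6 higher, and with no TMM scaling 8 were lower and 9 higher. The indolic enzymes CYP83B1, CYP79B2 and CYP79B3 fell by 1.54, 1.17 and 1.14 on the log2 scale, CYP83B1 from 1252, 1297 and 1181 CPM in labelled gpt2-1 to 433, 421 and 425 CPM. The sulfotransferase SOT16 fell by 1.19 and the regulators MYB51 and MYB34 by 0.42 and 0.74. Lower as well were UGT74B1 (-0.51) and SUR1 (-0.16), which serve both branches, and the myrosinase TGG2 (-0.32). Higher were MAM1 of the aliphatic branch at 1666, 1487 and 1561 against 1017, 969.6 and 927 CPM (log2 difference 0.69, SE 0.04), SOT18 by 0.61, CYP83A1 by 0.38, CYP79F1 by 0.36, the regulator MYB29 by 0.27 and SOT17 by 0.16. Its near copy CYP79F2 went the other way (-0.49), and reads of such copies (CYP79B2 and CYP79B3 too) are uncertain. ESM1, which steers breakdown of glucosinolates toward isothiocyanates, had 3.00 (10.7, 9.35 and 13.9 against 1.32, 1.66 and 1.25 CPM).

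Genes of sulfate uptake and sulfur limitation went both ways, with 3 of 6 tested genes higher and 3 lower. SHM7 stood at 183, 177 and 184 CPM against 41.7, 41.1 and 39.7 CPM (log2 difference 2.15, SE 0.04), SDI1, a repressor of glucosinolate synthesis, had 2.18 and LSU2 2.46. The wild type means were 67.7 and 97.4 CPM for SHM7, 3.40 and 13.1 CPM for SDI1 and 8.67 and 41.3 CPM for LSU2, in sets 1 and 2. The sulfate transporter SULTR1;2, which is also induced by lack of sulfur, went the other way (-1.56), and APS1 of sulfate assimilation (AT3G22890) had -0.21, or 0.053 with no TMM scaling. With wild type sets within 2-fold, 1 of 3 was higher and 2 lower. Of 9 nitrate genes 2 were higher and 4 lower, with NRT1.1, a nitrate transporter and sensor, at -1.79 (2.56 against 8.89 CPM), NIA2, the main nitrate reductase, at -0.58 and NIA1 at 0.54. Phosphate starvation genes had 2 higher and 3 lower of 6, none by 2-fold.

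The 10 largest rises by the naming rule began with AT3G01345, a protein of no annotated function (chromosome 3, 129138 to 130749). It stood at 53.4, 48.6 and 48.8 CPM in HCT-RNAi and at 0.502, 0.0663 and 0.0627 CPM in labelled gpt2-1, with a log2 difference of 7.84 (SE 0.18). The wild type means were 125 ± 10.4 CPM (set 1) and 183 CPM (set 2), so labelled gpt2-1 was lowest of the 4 groups. GRP9, a glycine-rich protein, stood at 215, 211 and 188 CPM against 3.08, 0.199 and 0.376 CPM (7.37, SE 0.18), with 0.443 and 0.0909 CPM in the wild type sets. SAG29 (SWEET15), a sugar transporter of senescence, stood at 12.6, 16.7 and 14.3 against 0.126, 0.199 and 0.125 CPM (6.54, SE 0.25), with 0.0756 and 0.0653 CPM in the wild type sets. For both genes HCT-RNAi was highest of the 4 groups.

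MLP28, a member of the major latex protein family with close copies, stood at 566, 578 and 523 CPM against 75.1, 74.7 and 73.7 CPM (log2 difference 2.90, SE 0.04). Col-0 set 1 had 66.8 ± 6.55 CPM. The other rises were AT5G37940, a zinc-binding dehydrogenase (4.50), AT5G22860, a serine carboxypeptidase (3.12), ESM1, AT2G16890, a glycosyltransferase (2.96), AT4G01985 (2.85) and LTP1, a lipid transfer protein of the epidermis (2.63). LTP1 varied between libraries of HCT-RNAi, at 37.7, 62.9 and 46.4 CPM.

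The 10 largest falls outside the set apart genes began with GPT2, TPS04, HSFA2, HSP70 and Hsp70-2. TPS04, a terpene synthase that makes geranyllinalool, stood at 0.961, 0.815 and 1.15 CPM in HCT-RNAi and 11.3, 13.7 and 19.1 CPM in labelled gpt2-1 (log2 difference -3.90, SE 0.21). Col-0 set 1 had 0.516 ± 0.116 CPM. AT5G13210, AT4G15270, UGT73B5, AT1G54200 and AT2G05950 followed, with log2 differences between -2.33 and -2.20. AT1G54200 was at 35.8 CPM in Col-0 set 1, above both lines.

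Set apart genes held the extremes. AT2G06045, a pseudogene of 387 exon bases, had no count in HCT-RNAi and 1029 in labelled gpt2-1, at least 433-fold lower against a floor of 3 counts over the group. AT5G13205, a pseudogene, had 2 and 3860 counts, 2436-fold lower (95% interval 674 to 20124). AT4G15150, a glycine-rich protein, had 3 and 3651 counts, 1536-fold lower (95% interval 525 to 7453). These intervals cover counting error only. Their Col-0 set 2 means were 0, 0 and 0.0779 CPM, and those of set 1 were 6.28, 14.6 and 36.9 CPM. A fall of more than 20-fold was seen in 28 passing genes, of which 25 were under 1 CPM in Col-0 set 2, and a rise of that size in 8. The largest set apart rises were GER3, a germin (4.65), ELIP1 and GRP7.

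Set beside Col-0 set 1, which both lines share as a reference, some stress lists were further from wild type in labelled gpt2-1 and others in HCT-RNAi. The median for jasmonate synthesis was 0.07 for HCT-RNAi and 1.79 for labelled gpt2-1, that for touch genes -0.09 and 1.31, and that for heat shock 0.16 and 1.26. For rapid stress factors it was -0.39 in HCT-RNAi and 0.12 in labelled gpt2-1, for ethylene genes -0.36 and 0.16, and for dehydration and cold genes 0.52 and 0.34. For monolignol genes it was -0.39 in HCT-RNAi and -0.06 in labelled gpt2-1. Starch degradation lay on both sides, at 0.58 and -0.56, and so did mitotic genes, at 0.76 and -0.39, and cambium genes, at 0.21 and -0.49. Col-0 set 2 was far from set 1 in the stress lists too, with -1.60 for jasmonate synthesis and -5.24 for touch genes.

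Over all genes, Col-0 set 1 lay between the lines for 476 of the 574 genes that were at least 2-fold higher, and for 622 of the 902 that were lower. It was nearer to HCT-RNAi for 755 of the 902 lower genes and nearer to labelled gpt2-1 for 147. Among the 574 higher genes these numbers were 296 and 278. With Col-0 set 2 in its place, 840 of the 902 and 368 of the 574 were nearer to HCT-RNAi. These include the set apart genes, for which Col-0 set 2 lies on the HCT-RNAi side of set 1 by definition.

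**Figure D5:**
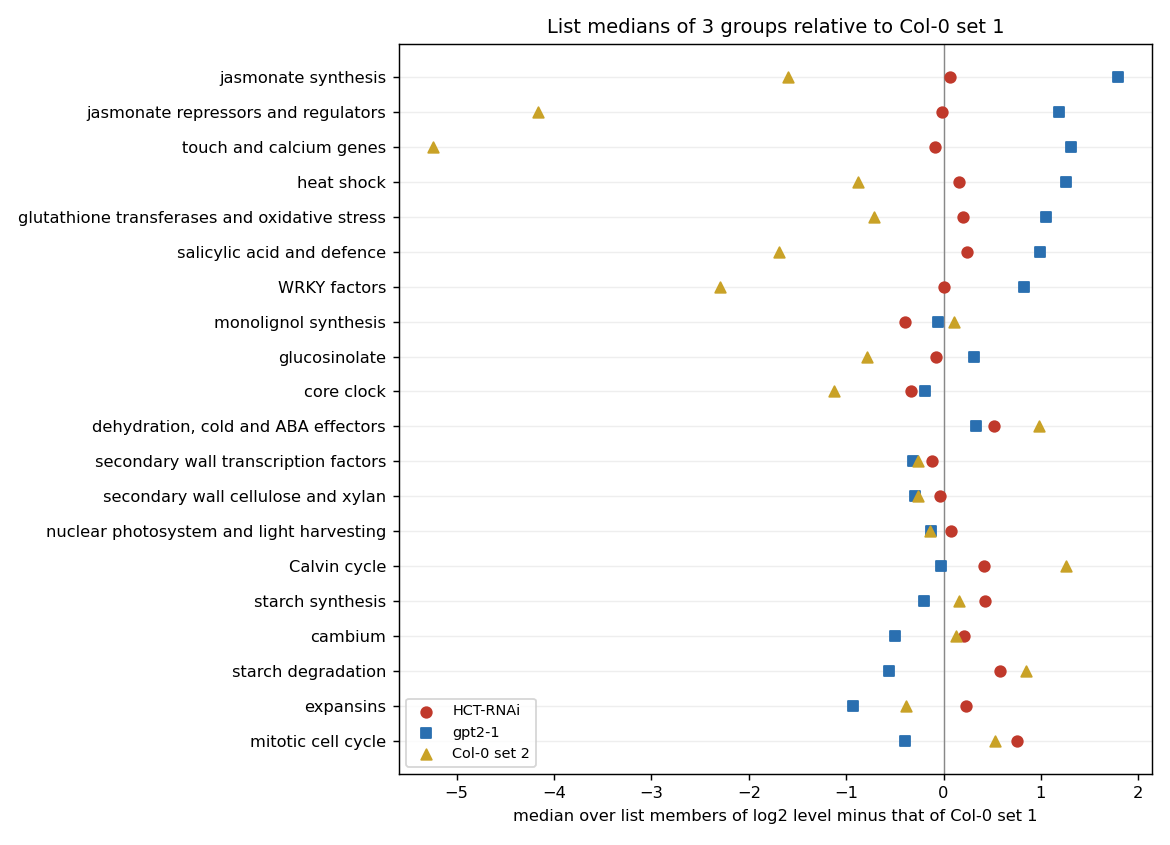
Median over the tested members of 20 lists of the log2 level minus that of Col-0 set 1, for HCT-RNAi (circles), labelled gpt2-1 (squares) and Col-0 set 2 (triangles). In the 7 uppermost lists, from jasmonate synthesis to WRKY factors, labelled gpt2-1 lies to the right, up to 1.79, and Col-0 set 2 to the left, down to -5.24. In the dehydration list HCT-RNAi (0.52) lies to the right of labelled gpt2-1 (0.34).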

How the data were processed

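Each sample came with 1 table of raw counts per gene, as deposited by the authors. STAR, DESeq2 and TAIR10 appear in the submitters' processing notes, with no role stated. Libraries were stranded per the labels' protocols, but neither a counting tool nor its strand setting is given in the sources used here. Counts of Col-0 set 2 were read in the row order of the first 35S GPT2 table, which raised their Spearman correlation across genes with a Col-0 set 1 table from 0.101 to 0.112 as labelled to 0.884 to 0.925. Every level of Col-0 set 2, and with it every set apart call, rests on this row order. PGD1 of that set is doubtful, and 2 columns were not used.

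Opposite-strand overlap was computed from RefSeq exons of TAIR10.1, whose names and coordinates are used. The 6 tables were fitted with edgeR 4.0.16 (R 4.3.3, limma 3.58.1), quasi-likelihood F test, TMM scaling on the tested genes, Benjamini-Hochberg adjustment. SE is the log2 difference over the square root of F. On simulated counts with 3 samples a group the script was checked for recovery of known changes. Replicates differed by 1.95 to 3.46 times the sampling variance, so each counted as 1 sample. Unnamed rows held at most 0.00117% of counts. The comparison, the 47 gene lists, the motifs and the rule for named genes (the 10 largest differences each way at 5 CPM or more outside the set apart genes, the 3 largest each way within them, and per list up to 4 members of smallest p and 2 against the majority) were chosen with earlier results of these data known. Some further list members are named for their role. Alternatives were DESeq2 1.42.0, other filters, scaling and gene sets, a replicate block and leaving out each sample. Same-numbered samples had correlations of -0.07, -0.02 and -0.06, so the numbers do not pair them.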

Additional observations from a re-analysis of the deposited data

How the results depend on the processing

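GPT2 and HCT kept their direction and passed under all alternatives, with log2 differences of -3.68 to -4.06 and -0.87 to -1.17. The 8387 passing genes were 7670 with DESeq2, 8314 with the replicate block, which left the numbers at least 2-fold higher and lower at 574 and 902, and 7913 to 8184 without 1 sample. Counts moved by more than 1.5 times under the following alternatives, most of which also changed the number of genes tested from 12038. Restricted to genes with wild type sets within 2-fold, 5471 of 8330 passed, 2774 higher and 2697 lower. Of the 8330, 575 were at least 2-fold apart, 309 higher and 266 lower. Without TMM scaling 7354 were higher and 2358 lower, and 1027 at least 2-fold higher. With no CPM minimum 3036 of 19830 genes differed by 2-fold, 1155 higher and 1881 lower. With a mean of 10 CPM or more 816 of 8399 did, 248 higher and 568 lower. With overlapping genes included 2413 of 16713 differed by 2-fold, 1270 of them higher. Medians of lists reversed as follows: without TMM scaling, glucosinolate 0.018, core clock 0.093, clock outputs 0.12, sucrose 0.15, xylem vessel 0.12 and shikimate 0.11. With wild type sets within 2-fold, salicylic acid 0.68, WRKY 0.15, core clock 0.45, xyloglucan endotransglucosylases -0.22 and sulfur -0.19, each on the few members left. With overlap included, rapid stress factors 0.13, core clock 0.038 and suberin 1.52. At 10 CPM, xyloglucan endotransglucosylases -0.41, sulfur -0.13 and xylem vessel 0.20. With no minimum, flower and pollen 0.40 and root -2.07. Without 1 sample in turn the xylem vessel median ranged from -0.21 to 0.16, the latter without labelled gpt2-1 replicate 1. Of single genes, 8 reversed without TMM scaling, all with small differences: PARVUS 0.10, RNS3 0.038, GBSS1 0.070, AT3G02360 0.027, APS1 of sulfate assimilation 0.053, TPD1 0.10, MYB43 0.022 and CESA6 0.12. Without 1 sample in turn CHI, which did not pass, ranged from -0.045 (without labelled gpt2-1 replicate 3) to 0.22. CESA5, which did not pass either, was at -0.0071 with overlap included. The cause of these changes was not tested. Depth limits genes near 2 CPM most, and values of close copies depend on how their reads were divided.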

Other observations

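Families grouped by words in their annotation, a choice made after values were seen and given without a test, moved together in places. Of 49 tested genes annotated as disease resistance proteins of the TIR-NBS-LRR class, intracellular immune receptors, 36 were lower in HCT-RNAi than in libraries labelled gpt2-1, 18 of them by at least 2-fold, and 2 were higher, with a median log2 difference of -0.69. Over all genes tested 34.6% were lower and 7.49% at least 2-fold lower. AT4G19520 stood at 85.4 CPM in HCT-RNAi and 345 CPM in labelled gpt2-1. Its wild type means were 83.55 CPM (set 1) and 7.84 CPM (set 2), and it was set apart. Others of the 18 were set apart too, such as WRR4 and AT4G14370, while RPS6 and LAZ5 were not. The family median against Col-0 set 1 was -0.03 for HCT-RNAi, 0.50 for labelled gpt2-1 and -1.35 for Col-0 set 2. Of 55 genes with lectin in their annotation, 29 were lower and 11 higher.

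Histone genes went the other way, with 23 of 31 higher and 2 lower, a median of 0.52 and 6 at least 2-fold higher. Over all genes tested 35.1% were higher and 4.77% at least 2-fold higher. The family median against Col-0 set 1 was 0.05 for HCT-RNAi, -0.40 for labelled gpt2-1 and 1.14 for Col-0 set 2. HTA11, a histone H2A, stood at 7.31 against 2.36 CPM and HIS4, a histone H4, at 8.57 against 3.28 CPM. Many of these genes are close copies. Of 37 genes annotated as cyclins, 13 were higher and 13 lower, with a median of 0.04. Genes for ribosomal proteins were higher in 164 of 231 cases and lower in 11, none by 2-fold, with a median of 0.25. The median over all genes tested was 0.02, and leaving out TMM scaling moved it to 0.28, in the same direction. Against Col-0 set 1 the family median was 0.515 for HCT-RNAi, 0.284 for labelled gpt2-1 and 1.34 for Col-0 set 2.

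Pectin lyase-like genes divided into a group that was at least 2-fold higher (7 of 32) and one as much lower (7). Among those higher, AT4G24780 stood at 105 against 33.1 CPM and AT3G15720 at 5.33 against 0.789 CPM. Among those lower, AT3G07820 stood at 5.86 against 20.5 CPM, with 7.41 CPM in Col-0 set 1, and AT3G07850 and AT3G14040 were lower as well, at 2.04 against 7.22 and 1.46 against 5.01 CPM.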
